A study of Rattus norvegicus with 3 samples.

Results

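Complement components and regulators were described here in the cerebellar cortex of rats, as the 9 genes C1qa, C1qb, C1qc, C1r, C1s, C3, Cfb, Serping1 and Cd55. A gene was a member when the accession of a probe that is not a control mapped to its rat RefSeq symbol, and all 9 had such probes among the 38973 genes measured. They were read from 13 probes printed in 42 spots on each array, and 2 of these spots were marked as outliers and left out. Gene expression was measured on 1-colour microarrays, on which labelled RNA of 1 sample is hybridised and the fluorescence of each spot is read. The MCAO group consisted of male Wistar rats aged 9 weeks, 2 days after transient occlusion of the right middle cerebral artery. The occlusion, an experimental stroke of the forebrain, was ended by withdrawing the filament. Their left cerebellar cortex was the contralateral and their right the ipsilateral sample. The control group was the left cerebellar cortex of male Wistar rats of the same age, 2 days after a sham operation. Each group had 1 array carrying RNA pooled from 4 rats, and both sides of the MCAO group came from the same rats. There was therefore no replicate and no test, and every difference is one between pools. The ipsilateral sample was also right cortex and the control left cortex, so MCAO and side of the body cannot be told apart in that comparison. Between the contralateral and the ipsilateral sample, left and right cortex, side of the body and side of the stroke cannot be told apart.

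Complement is a cascade of proteins that tags particles and cells for removal and can lyse them. The classical pathway starts when C1q binds a target and activates the proteases C1r and C1s, which cleave C4 and C2 and so lead to cleavage of C3, and factor B builds the convertase of the alternative pathway, which amplifies that step. C1 inhibitor and decay-accelerating factor restrain the cascade, and in the brain C1q is made mainly by microglia and takes part in the removal of synapses.

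The tissue label was checked with 8 markers of cerebellar neurons, of which 7 were on the array and all 7 had every probe well above background on the 3 arrays. Car8, a Purkinje cell gene with the highest signal of the list once the probes of a gene are averaged, had a log2 signal of 15.60 in the control, 15.74 in the contralateral and 15.75 in the ipsilateral sample. Signals are given as log2 of the background-subtracted intensity after each array was shifted to a common 75th percentile, and ratios are differences of these values. The scanner software gives an error for each spot, which came to 0.20 for the log2 ratio of most members and covers neither rats nor hybridisations.

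C1q is built from 3 chains encoded by C1qa, C1qb and C1qc, which lie next to each other on chromosome 5 in the RefSeq annotation of the GRCr8 assembly. The log2 signal of C1qa was 11.01 in the control, 11.49 in the contralateral and 11.76 in the ipsilateral sample. That of C1qb was 11.86, 12.48 and 12.84, and that of C1qc was 8.43, 9.03 and 9.48, in the same order. For all 3 chains the control was lowest and the ipsilateral sample highest, except that without scaling the contralateral value of C1qa and C1qb lay above the ipsilateral one, by 0.10 and 0.02. The log2 ratio of the contralateral sample to the control was 0.47 for C1qa, 0.62 for C1qb and 0.60 for C1qc, or 1.39-fold, 1.54-fold and 1.52-fold. The ipsilateral ratio was 0.75 for C1qa, 0.98 for C1qb and 1.05 for C1qc, or 1.68-fold, 1.97-fold and 2.08-fold. Each of these 6 ratios was above its scanner error of 0.20, and each stayed above 0 under every one of 10 other ways of processing. In pooled tissue, fewer cells of a type and less RNA per cell cannot be told apart, nor can more cells and more RNA per cell. The ratios of the 3 chains were close to each other. C1qc exceeded C1qa by 0.13 contralaterally, below the scanner error of 0.29 for a difference between ratios, and by 0.30 ipsilaterally, at about that error.

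**Figure D1:**
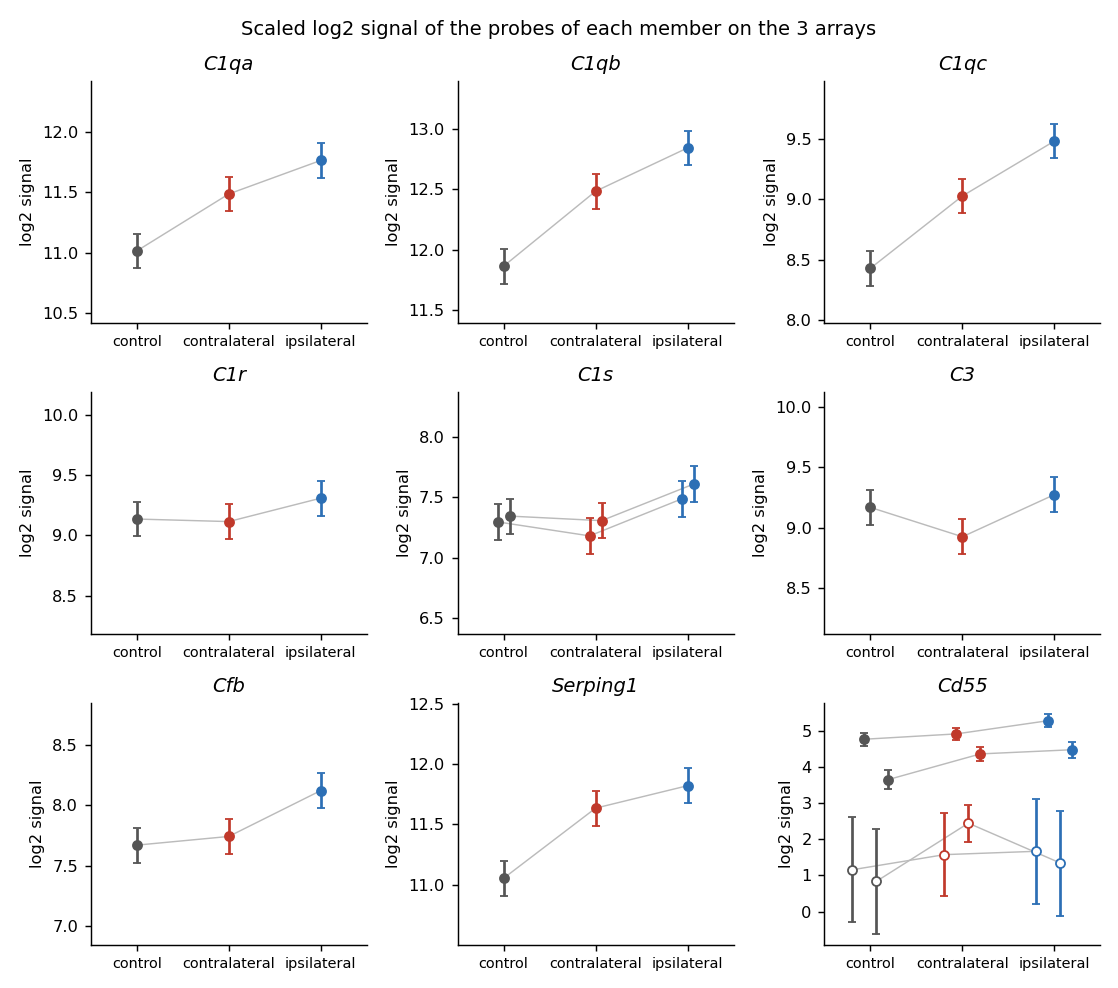
Scaled log2 signal of each probe of the 9 members on the control, contralateral and ipsilateral array, with bars for the scanner error of 1 array and lines joining the values of 1 probe. Open symbols are probes not well above background on any array. The y axes span 2 log2 units except for Cd55, and levels are not comparable between probes. C1qa, C1qb, C1qc, Cfb, Serping1 and every probe of Cd55 have their lowest value in the control. The contralateral value of C1r, C1s and C3 lies below the control.

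Several members were printed in more than 1 spot, which shows the error within an array. The 9 spots of C1qa gave contralateral ratios from 0.44 to 0.50 and ipsilateral ratios from 0.69 to 0.84. The 10 spots of C1qb gave 0.59 to 0.68 and 0.95 to 1.02, with an SD of 0.028 and 0.025. The sides therefore did not overlap between spots of either gene at this scaling, although spots of 1 array share its RNA and its hybridisation. C1qc had 1 spot, and its ratios rest on that spot alone.

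C1r and C1s encode the proteases that C1q carries, and lie next to each other on chromosome 4. The log2 signal of C1r was 9.13 in the control, 9.11 in the contralateral and 9.31 in the ipsilateral sample. That of C1s was 7.32, 7.24 and 7.55. Neither protease gene followed the C1q chains. The contralateral ratio was -0.02 for C1r and -0.08 for C1s, and the ipsilateral ratio was 0.17 and 0.23, near the scanner error of 0.20 and 0.21. The ipsilateral ratios were above 0 after scaling to the 75th percentile and below 0 without scaling, at -0.36 for C1r and -0.31 for C1s, and with scaling to spike-in probes, at -0.07 and -0.02, while the small contralateral ratio of C1r turned to 0.01 with scaling to the median. The 9 spots of C1r ranged from -0.16 to 0.05 contralaterally and from 0.08 to 0.23 ipsilaterally. Both probes of C1s gave similar ratios, of -0.12 and -0.04 contralaterally and of 0.19 and 0.26 ipsilaterally. A difference between the ratios of 2 genes does not change with a factor applied to a whole array. C1qb exceeded C1r by 0.64 contralaterally and by 0.81 ipsilaterally, each with a scanner error of 0.29. Under the other ways of processing these differences lay between 0.60 and 0.64 and between 0.77 and 0.81.

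**Figure D2:**
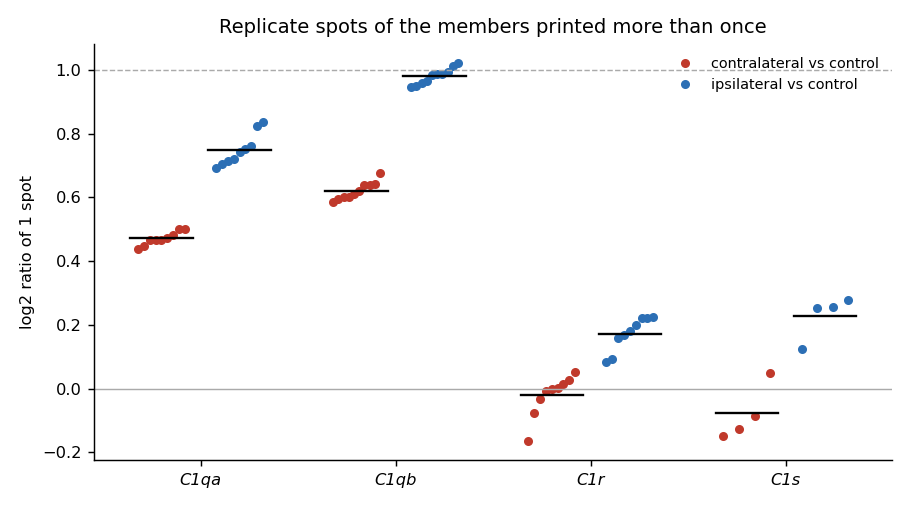
Log2 ratio to the control array of each spot of C1qa, C1qb, C1r and C1s on the contralateral and the ipsilateral side, with a black line at the mean of the spots and a dashed line at a ratio of 1. The spots of C1qa and C1qb lie between 0.44 and 1.02, and those of C1r and C1s between -0.16 and 0.28. Spots of 1 array are technical repeats of 1 pool.

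C3 is the protein on which the pathways converge, and factor B, encoded by Cfb, is the protease of the alternative convertase. The log2 signal of C3 was 9.17 in the control, 8.93 in the contralateral and 9.28 in the ipsilateral sample, so the contralateral sample was lowest. Its contralateral ratio of -0.24, with a scanner error of 0.20, was below 0 under every way of processing. Its ipsilateral ratio was 0.11 and turned to -0.43 without scaling and to -0.14 with spike-in scaling. Relative to the median of all detected genes, which lay at -0.49 and -0.20 under these settings, it was 0.06 in both. C1qb exceeded C3 by 0.86 contralaterally and by 0.87 ipsilaterally, with a scanner error of 0.29. The log2 signal of Cfb was 7.67 in the control, 7.74 in the contralateral and 8.12 in the ipsilateral sample. The contralateral ratio of Cfb was 0.07, within its error, and turned to -0.08 without scaling and to -0.01 with spike-in scaling. Its ipsilateral ratio was 0.45, which was -0.08 without scaling and 0.41 relative to the median of all detected genes under that setting. C3 and Cfb were each read from 1 spot.

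Serping1 encodes C1 inhibitor, which inactivates C1r and C1s. Its log2 signal was 11.05 in the control, 11.63 in the contralateral and 11.82 in the ipsilateral sample. The ratios to the control were 0.58 and 0.77, the latter 1.70-fold, and both stayed above 0 under every way of processing. They resembled those of the C1q chains more than those of its target proteases. Serping1 exceeded C1s by 0.66 contralaterally and by 0.54 ipsilaterally, with a scanner error of 0.29, and differed from C1qb by less than that error on either side. It was read from 1 spot.

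Cd55 encodes decay-accelerating factor, a membrane protein that takes apart the convertases that cleave C3. Of its 4 probes, 2 were well above background on all 3 arrays and 2 on none. The brighter of the measured probes had log2 signals of 4.77 in the control, 4.92 in the contralateral and 5.29 in the ipsilateral sample, and the dimmer had 3.65, 4.36 and 4.48. These dim signals carry a larger scanner error, of up to 0.25 for a ratio of the brighter and up to 0.34 for one of the dimmer. The contralateral ratio was 0.15 by the brighter and 0.71 by the dimmer probe, and the ipsilateral ratio 0.51 and 0.83. Each ipsilateral ratio exceeded its scanner error, while the contralateral ratio of the brighter probe did not. Averaged over these 2 probes the ratios were 0.43 and 0.67. Averaged over all 4 probes they were 0.72 and 0.59, with scanner errors of 0.97 and 1.17. The average over all 4 was therefore not measured well enough on these arrays to be set against the other members.

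A gene was counted as increased above a log2 ratio of 1 and as decreased below -1, the threshold of the study's methods. On the contralateral side 0 of the 9 members were increased, against 3.63% of the 27731 detected genes, those for which some probe stood well above background on some array, and 0 were decreased, against 4.76%. On the ipsilateral side 1 member was increased, against 8.86% of genes, and 0 were decreased, against 3.09%. The increased member was C1qc, and C1qb missed the threshold by less than the scanner error, with 2 of its 10 spots above 1. The call of C1qc was lost without scaling, where its ratio was 0.52, with spike-in scaling, at 0.81, with normexp background correction, at 0.93, with 50 added to the signal, at 0.96, and with the values deposited by the authors, where it did not exceed 1. Counts at this threshold therefore did not set the members apart from other genes. The size of the ratios gives a finer description. The contralateral ratio of C1qb was higher than that of 93.1% of detected genes, that of Serping1 higher than 92.6% and that of C1qa higher than 90.8%, while C1r was at 46.2%, C1s at 38.0% and C3 at 22.1%. On the ipsilateral side C1qc was at 91.7%, C1qb at 90.9%, Serping1 at 88.2% and C1qa at 87.9%. Cfb was at 81.5% there, C1s at 71.8%, C1r at 67.3% and C3 at 59.5%. Contralaterally C1qc was at 92.9% and Cfb at 62.8%. Cd55, averaged over all its probes, was at 94.2% contralaterally and 85.0% ipsilaterally. With scanner errors of 0.97 and 1.17 for that average, these ranks cannot be set against those of the other members.

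Set by role, the 5 members of the classical pathway had a median ratio to the control of 0.47 contralaterally and 0.75 ipsilaterally, against 0.00 and 0.05 over all detected genes. The other 4 members had medians of 0.33 and 0.52, or 0.07 and 0.45 without Cd55. The division did not run between the classical pathway and the other members. The C1q chains, with medians of 0.60 and 0.98, and Serping1 had larger ratios than C1r, C1s and C3, whose contralateral ratios were all below 0 after scaling to the 75th percentile, with the exception for C1r given above. Above a ratio of 0 lay 6 of 9 members contralaterally and 9 of 9 ipsilaterally, against 50.2% and 57.4% of detected genes, and the signs of C1r, C1s, C3 and Cfb depended on the scaling as described. Both comparisons use the same control array, so an error in that array enters both.

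**Figure D3:**
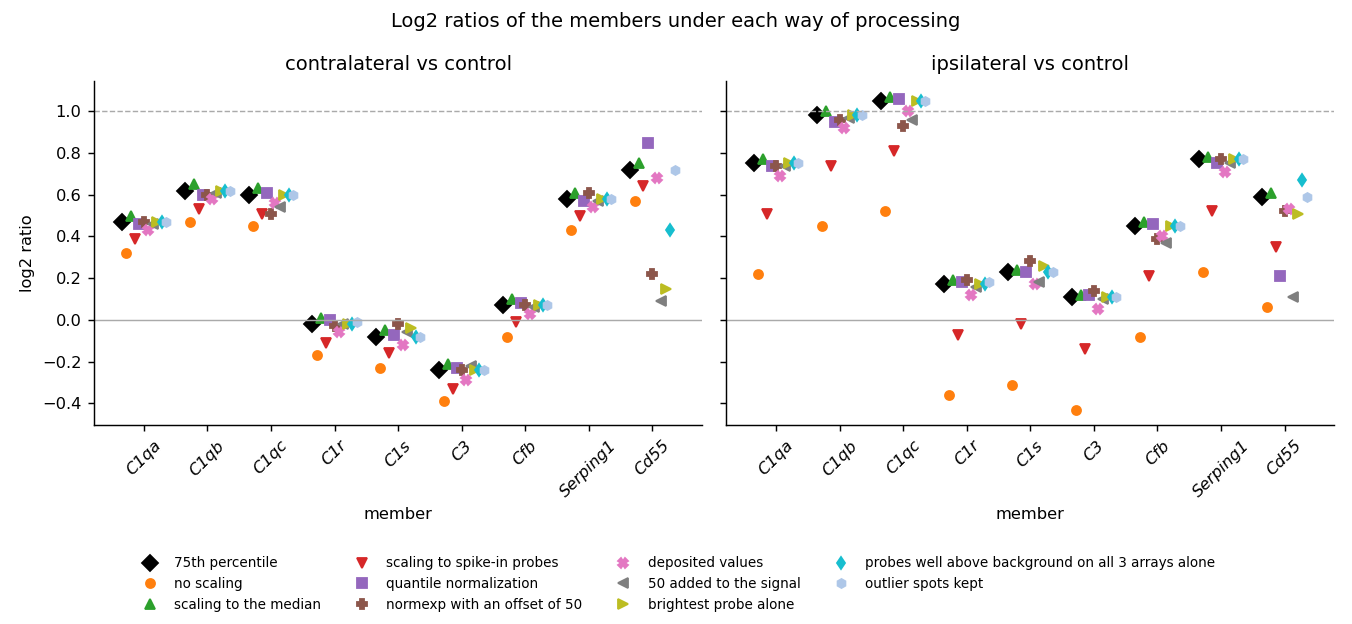
Log2 ratios of the 9 members to the control array on the contralateral and ipsilateral side, with the main values scaled to the 75th percentile as black diamonds and 10 other ways of processing in colour. Leaving out the scaling lowers all ipsilateral values, with the median of all detected genes at -0.49, and takes C1r, C1s, C3 and Cfb below 0, whereas the C1q chains and Serping1 stay above 0 throughout.

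The 2 sides of the MCAO group were also compared directly. The log2 ratio of the contralateral to the ipsilateral sample was -0.28 for C1qa, -0.36 for C1qb and -0.45 for C1qc. It was -0.19 for C1r, -0.30 for C1s, -0.35 for C3, -0.38 for Cfb and -0.19 for Serping1. In this comparison the C1q chains did not stand apart, and the ratio of C1qb minus that of C3 was -0.01. Cd55 had a ratio of 0.13 over all its probes, with a scanner error of 0.97. Its probes well above background gave -0.37 and -0.12, and -0.24 when averaged. Above 1 lay 0 members, against 1.60% of detected genes, and below -1 lay 0, against 8.25%. The median of all detected genes was -0.03. Without scaling this median was 0.35 and the ratios of C1qa, C1qb, C1r, C1s, C3 and Serping1 turned positive, between 0.02 and 0.20, but relative to that median all 8 genes stayed below 0, from -0.15 for Serping1 to -0.42 for C1qc. The ipsilateral array was the dimmest before scaling, and after scaling the negative controls, spots designed to bind no transcript of the rat, were brighter on it than on the control array by a median of 0.51. The part of this difference in the ipsilateral values was not tested. Quantile normalization, which gives all arrays 1 distribution of signals, left the ipsilateral ratio of C1qb at 0.95 and that of C3 at 0.12.

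Other genes of the cascade were taken from 7 lists of complement genes that include the members. Of 54 listed genes, 45 were on the array and 36 were detected. Above a ratio of 1 lay 0 of the 36 contralaterally, against 3.63% of all detected genes, and 1, C1qc, ipsilaterally, against 8.86%, and 0 lay below -1 on either side, against 4.76% and 3.09%. These counts depended in part on the processing, as C1qc was not above 1 under the settings named above, C6 was above 1 ipsilaterally with the brightest probe alone, and without scaling C4bpb, Vtn and Cd46, the latter pair named after their values were seen, were below -1 ipsilaterally. Their median was 0.05 contralaterally and 0.28 ipsilaterally. The classical pathway list had 8 detected genes with medians of 0.33 and 0.77, and C1qb was highest and C1s lowest on the contralateral side. C4a and C4b, which encode the C4 that C1s cleaves, had contralateral ratios of 0.35 and 0.30 and ipsilateral ratios of 0.79 and 0.80, and were chosen after their values were seen. These genes are near-identical copies, so probes may read both and the assignment is uncertain. C2, the other substrate of C1s, had ratios of 0.06 and 0.10 and was the lowest of the list on the ipsilateral side.

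In the list of C3 and the alternative pathway, 4 genes were detected with medians of -0.09 and 0.28. Cfd, the protease that activates factor B, was highest with 0.43 and 0.65, and Cfp, properdin, which stabilises the alternative convertase, was lowest with -0.34 and -0.29. The lectin pathway list had 4 detected genes of 8 on the array, with medians of 0.14 and 0.64. Among its genes measured by every probe, that is well above background on all 3 arrays, the ficolin Fcnb was highest with 0.26 and 0.93 and the collectin Colec12 lowest with -0.17 and 0.12. The contralateral ratio of Fcnb, a dim gene, lay within its scanner error of 0.33, and both ratios of Colec12 within 0.21. Of the terminal pathway, which forms the membrane attack complex, 2 of 4 genes on the array were detected, with medians of 0.12 and 0.67. C8b had ratios of 0.20 and 0.95, with scanner errors of 0.38 and 0.36. Its signals were dim, at 3.74 in the control, 3.94 in the contralateral and 4.69 in the ipsilateral sample. The 2 probes of C6 disagreed on both sides, with contralateral ratios of 0.29 and -0.21 and ipsilateral ratios of 1.28 and -0.50. The ipsilateral medians of both lists rest on few genes and moved with the processing. That of the terminal pathway was 0.14 without scaling, 0.24 with 50 added, 0.43 with spike-in scaling and with quantile normalization and 1.12 with the brightest probe, and that of the lectin pathway 0.11 without scaling, 0.21 with 50 added, 0.31 with the brightest probe, 0.40 with spike-in scaling and 0.43 with normexp.

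Serping1 was not typical of the soluble regulators, whose 6 detected genes had medians of 0.00 and 0.15. Cfi, the protease factor I, had the highest contralateral ratio, 0.65, and an ipsilateral ratio of 0.58, which were 0.22 and 0.19 with 50 added, while the contralateral ratio was 0.35 with normexp, under both settings below Serping1, and the ipsilateral 0.05 without scaling. C4bpb, a chain of the C4b-binding protein, was lowest on both sides, with -0.56 and -0.62, although Vtn was lower with normexp and with 50 added. The 6 detected membrane regulators had medians of 0.04 and -0.02, and among those measured by every probe Cd59b was highest, with 0.21 and 0.18, and Cr1l lowest, with 0.02 and -0.13. Of the complement receptors, 6 of 8 on the array were detected, with medians of -0.05 and 0.04. Among the receptors measured by every probe, Itgam, a chain of complement receptor CR3, was highest with 0.21 and 0.54. Its probes disagreed, with contralateral ratios of -0.08 and 0.50 and ipsilateral ratios of 0.24 and 0.84. By the probe at -0.08 Itgam was not the highest of these receptors on the contralateral side. C5ar1, a receptor of C5a, was lowest among the receptors measured by every probe, with -0.20 and -0.02. Without scaling the ipsilateral medians of the alternative pathway, soluble regulator and receptor lists were below 0, at -0.25, -0.38 and -0.49, and with spike-in scaling those of the regulators and receptors, at -0.09 and -0.20. The contralateral medians of the lectin, terminal and membrane regulator lists were -0.01, -0.03 and -0.11 without scaling. The signs of these small medians also depended on other settings. Contralaterally the lectin median was -0.04 with the brightest probe, that of the membrane regulators -0.04 with spike-in scaling, and those of the alternative pathway and the receptors 0.02 and 0.06 with normexp, and that of the soluble regulators lay on both sides of 0. Ipsilaterally the receptor median was 0.38 with normexp, -0.03 with quantile normalization and -0.02 with the deposited values, and that of the membrane regulators was 0.19 with normexp, 0.10 with probes well above background on all 3 arrays and 0.01 with 50 added.

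**Figure D4:**
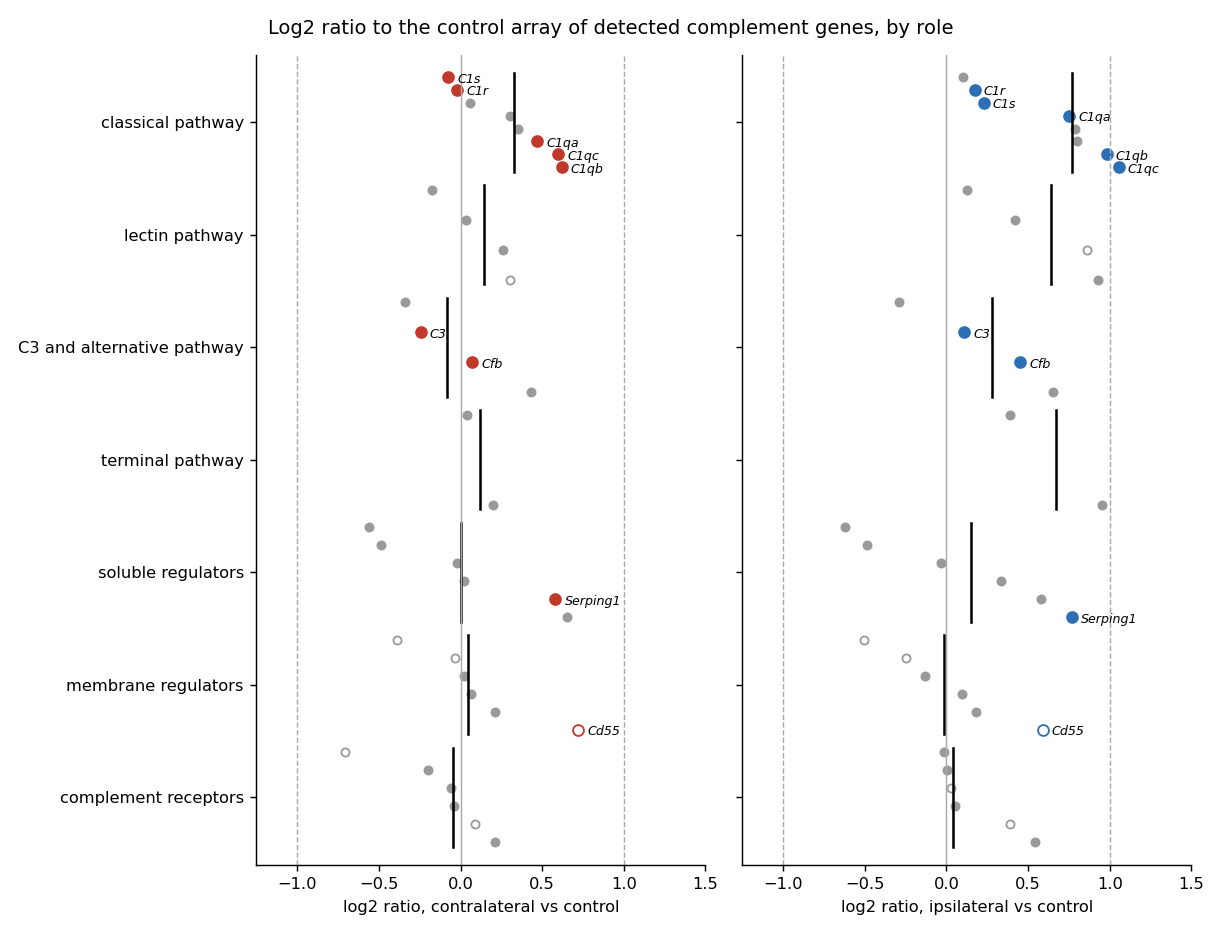
Log2 ratio to the control array of the detected genes of 7 complement lists, with the members coloured and named, the median of each list as a black line and dashed lines at 1 and -1. Open symbols are genes with a probe not well above background on some array. The 5 coloured members in the classical pathway list spread from -0.08 to 0.62 on the contralateral and from 0.17 to 1.05 on the ipsilateral side.

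A separate family carries the C1q domain but acts at synapses and not in complement, as Cbln1 does between granule and Purkinje cells. All 8 genes of this list were detected, with medians of 0.11 and -0.02, below the ratios of the C1q chains. The signs of these small medians were not stable, as the contralateral one was -0.04 without scaling and -0.01 with probes well above background on all 3 arrays, and the ipsilateral one 0.16 with normexp. Among those measured by every probe, Cbln3 had the highest contralateral ratio, 0.13, and C1ql1 the lowest, -0.33, and on the ipsilateral side C1ql2 had 0.12 and C1ql3 -0.47. Cbln2, named after its value was seen, had a contralateral ratio of 1.95 and an ipsilateral ratio of -0.07 by a probe printed in 8 usable spots, and its second probe was not well above background on any array. C1ql4 was not well above background in the control. Its ipsilateral ratio was 1.10, or 2.15-fold, with a scanner error of 0.41. This is a plain ratio and not a lower bound, since the control signal exceeded the lowest signal well above background on that array.

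Marker lists of cell types are given beside the members, and their part in the members' ratios was not tested. All 12 microglial markers were detected with every probe well above background, with median ratios of -0.03 contralaterally and 0.08 ipsilaterally. Their summed signal was 15818 in the control, 17493 in the contralateral and 19211 in the ipsilateral sample, and 14448, 15148 and 15901 without Cx3cr1. Contralaterally 5 of the 12 markers had a ratio above 0 and 7 below, and ipsilaterally 9 above and 3 below. The C1q chains thus had larger ratios than the median of the microglial list. Cx3cr1, the fractalkine receptor, named after its value was seen, had larger ratios than the chains, 0.78 and 1.27, and was the 1 marker above 1, a call lost without scaling, where its ipsilateral ratio was 0.74. Relative to Cx3cr1, C1qb differed by -0.15 and -0.29 and C1qc by -0.18 and -0.22, up to the scanner error of 0.29, while C1qa differed by -0.30, at about that error, and by -0.52, beyond it.

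The leptomeninges and fibroblast list, whose cells can also express complement genes, had medians of -0.67 and -0.32 over 10 genes, and its summed signal was 15160 in the control, 8812 in the contralateral and 11699 in the ipsilateral sample. Col1a2 led it by the signal averaged over the probes of a gene, the measure by which a leading gene is named for each list although levels of different probes are not comparable, and had ratios of -0.85 and -0.37. The choroid plexus list had medians of -0.77 and 0.56 over 10 genes, with summed signals of 34247, 10833 and 77088 that Ttr dominated. The size of these medians depended on the processing, with a contralateral median of -0.34 with normexp and -0.40 with 50 added, and an ipsilateral one of 0.02 without scaling, 0.22 with 50 added, 0.31 with spike-in scaling and 0.33 with quantile normalization. C1r, C1s and C3 were lowest in the contralateral and highest in the ipsilateral sample, in the order of the medians of this list. Both ratios of C1r to the control lay within its scanner error of 0.20. So did the contralateral ratio of C1s, within 0.21, and the ipsilateral ratio of C3, within 0.20. Any link of these genes to the list was not tested. That order of the 3 genes depended on scaling, as all 3 were highest in the control with spike-in scaling and highest there and lowest in the ipsilateral sample without scaling, and the contralateral ratio of C1r was 0.01 with scaling to the median. The C1q chains and Serping1 were in the order of neither list. Astrocytes and Bergmann glia had medians of 0.01 and -0.02 over 8 genes, with summed signals of 273372, 304390 and 333638 led by Aldoc, and of 84403, 76250 and 76817 without it, so the sum was higher in the MCAO group with Aldoc and lower without it. Endothelium had -0.22 and -0.12 over 8 genes, with sums of 7475, 5962 and 6072 led by Cldn5. Cerebellar neurons had 0.13 and 0.09 over 7 genes, with sums of 159917, 169462 and 171348.

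Genes of blood and of liver, the latter another source of complement, were mostly dim. An exception was Hba-a1, with log2 signals of 10.98 in the control, 10.09 in the contralateral and 9.94 in the ipsilateral sample. Genes of the erythroid and blood list had medians of -1.03 and -0.82 over 5 detected genes, with summed signals of 2181, 1169 and 1067 led by Hba-a1. Both medians stayed below 0 under every way of processing, but their size did not hold, at -0.29 and -0.15 with normexp, -0.46 and -0.45 with 50 added and, ipsilaterally, -1.06 with spike-in scaling and with quantile normalization and lower still without scaling. Of the neutrophil list 3 of 5 genes on the array were detected, with medians of 0.16 and 1.04 and sums of 78, 95 and 129 led by S100a9, and Elane and Cxcr2 were not well above background on any array. The ipsilateral median rests on few genes, and was 0.42 over the 2 genes measured by every probe, S100a9 at 1.04 and S100a8, named after its values were known, at -0.19, and 0.41 with 50 added to the signal. Hepatocyte genes had medians of -0.38 and 0.57 over 5 detected genes with sums of 51, 45 and 68 led by Fgb, and Fgg was not well above background on any array. The contralateral median turned to 0.08 with normexp and to 0.49 with probes well above background on all 3 arrays, and 1 gene was measured by every probe. The signs of other small medians depended on the processing. The ipsilateral medians of the microglia and neuron lists turned to -0.45 and -0.44 without scaling and to -0.16 and -0.15 with spike-in scaling, and that of the neurons to -0.08 with quantile normalization. The contralateral median of the neurons turned to -0.02 without scaling and to -0.01 with quantile normalization, and those of the astrocyte list, near 0 on both sides, also changed sign. Those of the leptomeninges and endothelium kept theirs, although the ipsilateral ones were -0.85 and -0.66 without scaling and -0.56 and -0.37 with spike-in scaling.

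**Figure D5:**
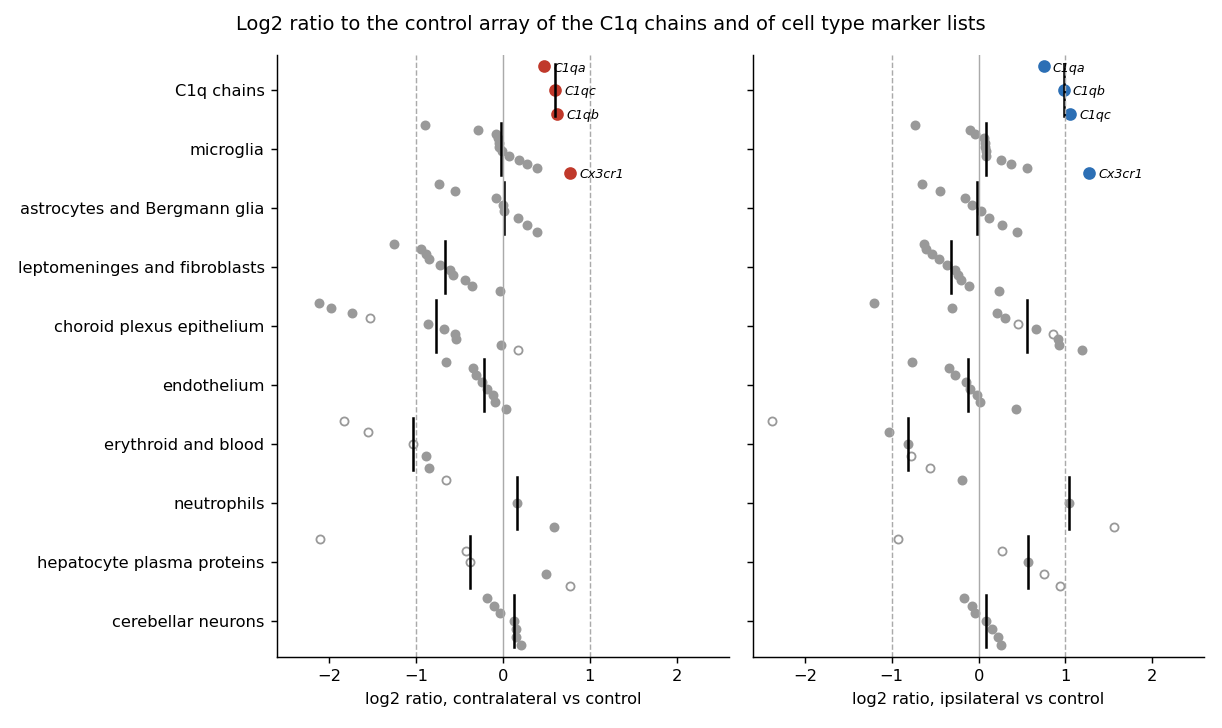
Log2 ratio to the control array of the C1q chains and of the detected genes of 9 marker lists, with the median of each list as a black line and dashed lines at 1 and -1. Open symbols are genes with a probe not well above background on some array. The C1q chains, between 0.47 and 0.62 on the contralateral and 0.75 and 1.05 on the ipsilateral side, lie above the median of the microglia list and below Cx3cr1.

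Over the 92 other genes of all lists that every probe measured, those nearest to C1qb over both ratios to the control were S100a9 at a distance of 0.07 log2 units, C1qc at 0.08 and Serping1 at 0.22. Those nearest to C3 were Colec12 at 0.07, C5ar1 at 0.13 and Laptm5 at 0.17. With 2 ratios that share a control, such nearness is a description of these arrays.

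The promoters of C1qa and C1qb, genes whose ratios were similar, and of C3, whose ratios were not, are shown as the 250 bases before the start of each gene, from RefSeq on the GRCr8 assembly. The table of promoters held 5 of the 9 members, C1qa, C1qb, C1r, C3 and Cd55. The motifs GAGGAA (core of PU.1, a factor of microglia and other myeloid cells), GAAANNGAA (interferon-stimulated element), GGANNTTCC (NF-kB-like), TTCNNNGAA (STAT site) and TTGCNNAA (C/EBP-like) were searched on both strands, and capitals mark their matches. C1qa lies on the minus strand, with its window at chr5:154419934-154420183, C1qb on the minus strand at chr5:154407828-154408077 and C3 on the minus strand at chr9:2201340-2201589.
C1qa: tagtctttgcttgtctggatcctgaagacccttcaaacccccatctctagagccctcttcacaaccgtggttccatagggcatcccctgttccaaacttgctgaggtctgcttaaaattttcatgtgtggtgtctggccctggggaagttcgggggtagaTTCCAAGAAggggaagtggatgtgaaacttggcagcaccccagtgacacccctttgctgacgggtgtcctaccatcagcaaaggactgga
C1qb: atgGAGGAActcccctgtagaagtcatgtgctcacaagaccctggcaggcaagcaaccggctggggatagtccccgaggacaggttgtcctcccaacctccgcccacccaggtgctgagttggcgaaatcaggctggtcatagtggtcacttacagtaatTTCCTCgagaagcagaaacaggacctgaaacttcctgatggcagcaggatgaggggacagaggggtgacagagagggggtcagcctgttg
C3: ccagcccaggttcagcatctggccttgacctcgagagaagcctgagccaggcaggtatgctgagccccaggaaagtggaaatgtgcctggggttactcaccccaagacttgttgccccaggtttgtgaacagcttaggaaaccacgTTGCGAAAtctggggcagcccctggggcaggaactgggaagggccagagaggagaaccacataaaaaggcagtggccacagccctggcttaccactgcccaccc
C1qa held a match to the STAT motif from 90 to 82 bases before the start, and 7.67% of 33469 promoters held one in a window of this length. C1qb held the PU.1 core at 247 to 242 and, on the other strand, at 90 to 85 bases before the start, as did 23.3% of promoters at least once. C3 held a match to the C/EBP-like motif from 104 to 97 bases before the start, as did 9.22% of promoters. C1r held the PU.1 core and the C/EBP-like motif, and Cd55 held none of the 5. No member held GAAANNGAA, found in 8.12% of promoters, or GGANNTTCC, found in 3.36%, and no matches overlapped. C1qa and C1qb thus shared none of these motifs in the windows shown, and a match or its absence says only which letters stand there.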

How the data were processed

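The authors labelled RNA with Cy3, hybridised it to Agilent arrays of 1 colour, and deposited intensity values per spot from Agilent Feature Extraction 12.1.0.3, with the background subtracted. The deposited value table equalled these intensities times 1.12, 1.45 and 1.04 on the contralateral, ipsilateral and control array. Here log2 signals were shifted to a common 75th percentile, 759 outlier spots were left out, and spots of a probe and then probes of a gene were averaged. Symbols were taken from the RefSeq table of GRCr8 for 17622 of 39957 accessions, and the others were kept under their accession. No spot was saturated, and 72.3% to 73.7% of spots per array were well above background. The number of arrays limits the precision.

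No test was made with 1 array per group. A gene was detected when some probe of it was well above background on some array. Where 1 of 2 signals was not, the brighter was set against the higher of the dim signal and the lowest signal well above background. Where the dim signal was the higher, this gives the plain ratio and no lower bound. The members and all lists were chosen with earlier results of these data known. Named were the members, the highest and lowest gene of each complement and C1q-domain list among those that every probe measured well above background, any such gene past the threshold, the gene of highest averaged signal and the undetected genes of each marker list, and the nearest genes to C1qb and C3. Others are marked as named once their values were known. Apart from these, 1 gene covered by the rule is not reported. Ratios were recomputed without scaling, after scaling to 8 spike-in probes or to the median, after quantile normalization, from the deposited values, from normexp-corrected signals (offset 50), with 50 added to each signal, from the brightest probe, from probes well above background on all 3 arrays, and with outlier spots kept. Normexp was run on median signals, since the files used here give no mean signal. The computation of ratios and calls was tested on simulated spots with known changes. The software was limma 3.58.1 (R 4.3.3), numpy 2.4.6, pandas 2.3.3 and matplotlib 3.10.9 (Python 3.11.15).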

Additional observations from a re-analysis of the deposited data

How the results depend on the processing

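The 9 members had 90 ratios in each comparison under 10 alternatives, of which 87 kept their sign on the contralateral side, 83 on the ipsilateral side and 79 between the sides. All 90 contralateral ratios moved by less than the scanner error, as did 74 ipsilateral ratios and 82 between the sides. Part of these ratios could not move. Members with 1 probe give the same value from the brightest probe, and keeping outlier spots could change only C1qa and C1r. Cd55 was held to its large scanner errors of 0.97 contralaterally and 1.17 ipsilaterally. The counts are therefore no measure of how stable the ratios were. The number of members above 1 on the ipsilateral side was 1 and became 0 without scaling, with spike-in scaling, with normexp, with the deposited values and with 50 added to the signal. The ipsilateral median of the 5 classical pathway members was 0.75, and was 0.22 without scaling and 0.51 with spike-in scaling, where it lay 0.71 above the median of all detected genes in both. Between the sides that median was -0.30 and turned to 0.08 without scaling, or -0.27 relative to all detected genes. Normexp moved the ipsilateral median of all detected genes to 0.18. The shifts without scaling, with spike-in or median scaling and with the deposited values follow from construction, since each array is multiplied by another factor. The cause of the others was not tested. No paired analysis was possible because no test could be made with 1 array per group. C1qc, C3, Cfb and Serping1 rest on 1 spot each, and 2 probes of Cd55 were not well above background. The contralateral ratio of Cd55 ranged from 0.09 with 50 added to the signal to 0.85 with quantile normalization. A signal near background limits what these arrays show of Cd55, and the spread between rats is unknown for every member.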
